A study of Mus musculus with 36 samples.

Results

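Receptors that steer macrophages towards chemokines and other chemoattractants were examined in RAW264.7, a mouse cell line with macrophage properties. The genes were chosen by name, with earlier results of these data known. They are Cx3cr1, Ccr1, Ccr2, Ccrl2, Cxcr4, Fpr1 and Fpr2, which are 7 of the 49568 gene names in each count table. Cells had received PBS or a synthetic 15-mer peptide taken from the third allelic hypervariable region of human HLA-DRβ. Peptide 65–79*SE carries the shared epitope of HLA-DRB1*04:01, a rheumatoid arthritis risk allele, and 65–79*PE carries the protective epitope of HLA-DRB1*04:02. Each peptide was given at 100 µg/ml for 72 h together with IFNγ at 5 ng/ml (M1 polarizing conditions) or Il-4 at 5 ng/ml (M2 polarizing conditions). RNA-seq libraries came from 6 groups of 6, with a PBS, a 65–79*SE and a 65–79*PE group in the IFNγ table and again in the Il-4 table. The titles of the PBS samples also name IFNγ or Il-4. The study describes cells kept with the cytokine, with or without peptide, so PBS cells may have been meant to receive it. The labels name replicates 1–3 and 4–6 by different schemes, called label sets here. The libraries of a group are described by the study as biological replicates spread over 2 independent experiments, and which replicate came from which experiment is not given in the sources used here. All groups share 1 cell line, so p-values measure the spread between libraries of that line.

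Chemokine receptors are G protein-coupled receptors that move leukocytes up a gradient of ligand. Among mouse monocytes, Ccr2, the receptor for Ccl2, is known for bringing inflammatory cells out of bone marrow and into tissue. Cx3cr1 binds fractalkine and marks patrolling monocytes and many resident macrophages. Ccr1 binds Ccl3, Ccl5 and related chemokines, and Cxcr4 binds Cxcl12 and retains cells in bone marrow. Ccrl2 is an atypical receptor that binds and presents chemerin without moving the cell. Fpr1 and Fpr2 detect formylated peptides from bacteria and mitochondria, and Fpr2 also binds annexin A1 and serum amyloid A.

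The positions of the 7 genes in GRCm38 (GENCODE release M21) place 4 of them on chromosome 9. Ccrl2 lies at chr9:111054486-111057519, Cx3cr1 at chr9:119901616-120069879, Ccr1 at chr9:123962124-123968692 and Ccr2 at chr9:124101950-124113557, with Ccr2 alone of these on the plus strand. Cxcr4 is at chr1:128588199-128592293, Fpr1 at chr17:17876471-17883940 and Fpr2 at chr17:17887824-17893952. All are protein-coding, and the counts are of reads in their exons. Fpr2 shares 48 exon bases with Fpr3 on the same strand, so reads there are uncertain. Only reads that aligned uniquely were counted, so any reads from Ccr2 sequence that is not unique would be missing. How much of Ccr2 this covers was not measured. Fpr3 had at most 1 count in any library. Cx3cr1 shares 78 exon bases with the antisense gene Gm33858, and the strand setting of the counting was not stated.

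The bases upstream of 3 receptors are shown because Ccrl2, Fpr2 and Cx3cr1 had the largest differences described below. Each run holds the 250 bases before a RefSeq start in GRCm38.p6, read 5′ to 3′ on the strand of the gene, and capitals mark matched motifs. All 7 receptors matched the RefSeq table, with 9 starts in all. For Ccrl2 the most upstream of its 3 starts is given.
Ccrl2 (chr9:111057519-111057768, minus strand): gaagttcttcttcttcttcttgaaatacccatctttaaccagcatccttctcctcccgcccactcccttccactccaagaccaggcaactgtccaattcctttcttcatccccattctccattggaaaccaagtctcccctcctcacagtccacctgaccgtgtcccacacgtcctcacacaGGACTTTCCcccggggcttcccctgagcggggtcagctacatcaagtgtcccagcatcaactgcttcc
Fpr2 (chr17:17887574-17887823, plus strand): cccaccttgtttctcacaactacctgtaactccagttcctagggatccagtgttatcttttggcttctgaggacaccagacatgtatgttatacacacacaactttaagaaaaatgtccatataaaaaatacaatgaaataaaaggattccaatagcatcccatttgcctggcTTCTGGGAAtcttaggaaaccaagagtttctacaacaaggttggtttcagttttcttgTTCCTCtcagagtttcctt
Cx3cr1 (chr9:120068297-120068546, minus strand): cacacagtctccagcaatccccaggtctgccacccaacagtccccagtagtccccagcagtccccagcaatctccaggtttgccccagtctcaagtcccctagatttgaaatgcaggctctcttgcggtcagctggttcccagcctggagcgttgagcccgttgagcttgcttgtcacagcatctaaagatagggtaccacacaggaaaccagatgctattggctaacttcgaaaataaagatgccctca
The capitals in Ccrl2 are a κB motif (GGACTTTCC), 68 bases before the start, whose letters occur in 0.283% of 32851 upstream windows of this length. In Fpr2 they are a GAS motif (TTCNNNGAA), 77 bases before the start, and a Pu.1 core (GAGGAA) read on the other strand, 19 bases before it. These letters are in 7.02% and 23.3% of windows. Both strands were searched, and no 2 of these matches overlapped. A Pu.1 core also stands 129 bases before the start of Ccr1. A Stat6-type motif (TTC and GAA with 4 bases between, in 5.85% of windows) and an ISRE core (GAAA and GAAA with 2 bases between, in 2.98%) matched none of the 9 windows. The motifs were picked with the results known, and a match describes letters only.

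Total counts per library ran from 20666573 to 63155889 in the IFNγ table and from 17049921 to 30639021 in the Il-4 table, and 3 counts, the most that a count of 0 allows, were 0.0475 to 0.145 CPM and 0.0979 to 0.176 CPM. Histone and Rn7s transcripts took 15.4% to 21% of the counts in replicates 4–6 of the IFNγ table and at most 0.0241% in replicates 1–3. Their share in the Il-4 table was 1.9% to 3.11% in replicates 4–6 and at most 0.0146% in replicates 1–3. Of 10 macrophage genes, 9 were over 1 CPM in every group. The summed levels of 8 lymphocyte, 6 fibroblast, 6 epithelial and 6 neutrophil markers stayed at or under 2.28, 1.27, 0.471 and 1.19 CPM in any library. The 3 libraries labelled 65–79*SE with IFNγ, replicates 4–6, stand apart. Their 20 IFNγ response genes averaged 1.57, 1.67 and 1.4 on the log2 CPM scale, beside 1.61, 1.82 and 1.63 in PBS and 6.56, 6.48 and 6.49 in 65–79*PE of that label set. In replicates 1–3 the 65–79*SE libraries averaged 6.44, 6.35 and 6.49. PBS libraries lacked the response to either cytokine, although their titles name one. A contrast with PBS is therefore read as holding cytokine and peptide together, and only 65–79*SE against 65–79*PE compares peptides under 1 cytokine. All libraries are called by their labels, and values are given per label set. In such bulk RNA, fewer cells that carry a transcript and less transcript per cell cannot be told apart.

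**Figure D1:**
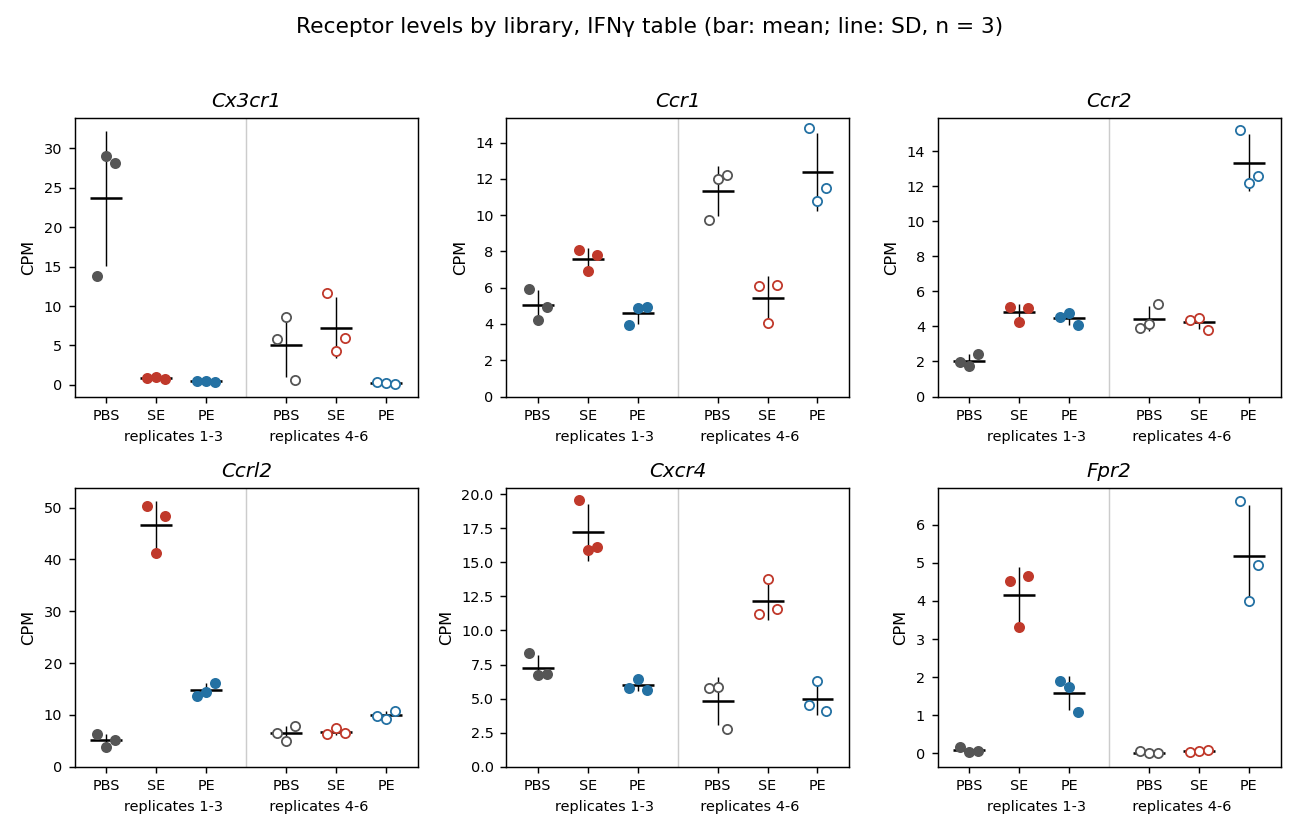
CPM of 6 receptors in each library of the IFNγ table, with PBS in grey, 65–79*SE in red and 65–79*PE in blue. Filled points are replicates 1–3 and open points replicates 4–6, bars are means and lines are the SD (n = 3), and the open red points of 65–79*SE lie near PBS for each receptor but Ccr1 and Cxcr4.

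Levels per kilobase of exon give the order of the receptors within a group. In PBS of the IFNγ table, replicates 1–3, Cx3cr1 came first at 5.25 ± 1.9 CPM per kb (SD, n = 3) and Cxcr4 followed at 4.02 ± 0.5, with overlapping ranges. Ccrl2 at 1.98 ± 0.478 and Ccr1 at 1.77 ± 0.307 also overlapped, and Ccr2 stood lower at 0.303 ± 0.0523. The order differed in the 65–79*SE libraries of these replicates, where Ccrl2 led at 17.9 ± 1.82 and Cxcr4 followed at 9.51 ± 1.15, with ranges apart. Fpr2 was the next at 3.21 ± 0.571, overlapping Ccr1 at 2.68 ± 0.216, and Cx3cr1 was under Ccr2 at 0.19 ± 0.0367. In 65–79*PE, Ccrl2 led as well, at 5.68 ± 0.508. In replicates 4–6 of 65–79*PE the first places went to Ccr1 at 4.37 ± 0.754, Fpr2 at 4 ± 1.02 and Ccrl2 at 3.82 ± 0.318, each overlapping its neighbour.

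Cx3cr1, the fractalkine receptor, fell with both peptides and IFNγ in replicates 1–3. In PBS it stood at 13.8, 29 and 28.2 CPM, while 65–79*SE libraries had 0.858, 1.02 and 0.689 CPM and 65–79*PE libraries 0.528, 0.547 and 0.396 CPM. No treated library came within 10-fold of any PBS library of its label set. The fit gave a log2 fold change of -4.77 ± 0.289 (SE of the fit) for 65–79*SE, 27.2-fold lower (adjusted p = 1.07e-08, edgeR's quasi-likelihood test), and -5.54 ± 0.314 for 65–79*PE, 46.7-fold lower (adjusted p = 7.85e-09). Among 15343 genes tested, it was the eighth lowest for 65–79*SE and the third lowest for 65–79*PE.

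Cx3cr1 of replicates 4–6 stood at 5.82, 8.67 and 0.662 CPM in PBS, so that 1 PBS library lay far under the other 2. The 65–79*PE libraries had 0.333, 0.258 and 0.127 CPM, all under PBS, and the log2 fold change was -4.43 ± 0.896 (adjusted p = 0.00334). With replicate 6 of every group left out Cx3cr1 was called lower as well (adjusted p = 0.00024), and with replicate 5 left out it was not (adjusted p = 0.0506). The libraries labelled 65–79*SE had 11.6, 4.25 and 5.96 CPM, within the range of PBS or above it, with a log2 fold change of 0.57 (95% interval -0.73 to 1.86).

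Ccr2, which brings inflammatory monocytes to Ccl2, rose with both peptides and IFNγ in replicates 1–3. PBS libraries held 1.99, 1.73 and 2.43 CPM, 65–79*SE libraries 5.12, 4.27 and 5.03, and 65–79*PE libraries 4.52, 4.78 and 4.08. The treated libraries of both peptides all lay above PBS and overlapped each other. The rise was 2.39-fold for 65–79*SE (log2 1.26 ± 0.155, adjusted p = 1.34e-05) and 2.24-fold for 65–79*PE (log2 1.16 ± 0.156, adjusted p = 3.94e-05). Among replicates 4–6, PBS had 3.93, 4.14 and 5.27 CPM and 65–79*PE had 15.2, 12.2 and 12.6, a 2.98-fold rise (adjusted p = 6.36e-06). The libraries labelled 65–79*SE stood at 4.38, 4.47 and 3.82 CPM, inside the PBS range or just under it.

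The ratio of Ccr2 to Cx3cr1 within a library does not depend on scaling between libraries. Per kilobase of exon it was 0.0958, 0.0397 and 0.0574 in PBS replicates 1–3, beside 3.98, 2.8 and 4.87 with 65–79*SE and 5.7, 5.83 and 6.85 with 65–79*PE, all with IFNγ. Cx3cr1 was thus the higher of the pair in PBS and Ccr2 the higher in the treated libraries. For replicates 4–6 it was 0.45, 0.318 and 5.31 in PBS and 30.3, 31.4 and 66.4 with 65–79*PE. The libraries labelled 65–79*SE had 0.251, 0.701 and 0.428, and the PBS library at 5.31 was the one with little Cx3cr1.

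Ccr1, a receptor for Ccl3 and Ccl5, was higher with 65–79*SE than in the other groups of replicates 1–3. Its levels were 5.94, 4.21 and 4.92 CPM in PBS, 8.09, 6.91 and 7.79 with 65–79*SE and 3.93, 4.87 and 4.95 with 65–79*PE, under IFNγ. The 65–79*SE libraries did not overlap the others, and the rise over PBS was 1.54-fold (log2 0.62 ± 0.14, adjusted p = 0.00218). This rise is close to the fold of 1.5 required, and it stayed under that fold without replicate 2, at a log2 fold change of 0.56, and with scaling to library totals, at 0.57. For 65–79*PE the log2 fold change from PBS was -0.09 (95% interval -0.41 to 0.22). The order was the opposite in replicates 4–6, with 9.72, 12 and 12.2 CPM in PBS, 14.8, 10.8 and 11.5 with 65–79*PE and 6.1, 4.08 and 6.16 in the libraries labelled 65–79*SE. These last were 2.04-fold lower than PBS (adjusted p = 0.0246), a call lost without replicate 5 and without replicate 6, at adjusted p = 0.245 and 0.126.

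Cxcr4, the receptor for Cxcl12, was higher with 65–79*SE in both label sets. Replicates 1–3 had 8.32, 6.72 and 6.79 CPM in PBS, 19.6, 15.9 and 16.1 with 65–79*SE and 5.78, 6.45 and 5.66 with 65–79*PE. Replicates 4–6 had 5.81, 5.83 and 2.76 CPM in PBS, 11.2, 13.8 and 11.6 in the libraries labelled 65–79*SE and 4.5, 6.29 and 4.11 with 65–79*PE. Every 65–79*SE library lay above every PBS and 65–79*PE library of either label set. The rise over PBS was 2.4-fold in replicates 1–3 (log2 1.26 ± 0.112, adjusted p = 5.17e-07) and 2.56-fold in replicates 4–6 (log2 1.36 ± 0.246, adjusted p = 0.0304). The second call was lost without replicate 5, at adjusted p = 0.245 and a log2 fold change of 1.41. For 65–79*PE the log2 fold changes from PBS were -0.25 (95% interval -0.503 to 0.005) and 0.06 (95% interval -0.49 to 0.61).

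Ccrl2, the atypical receptor that presents chemerin, had the highest level of the 7 with 65–79*SE and IFNγ in replicates 1–3. In replicates 1–3, PBS libraries held 6.33, 3.85 and 5.23 CPM, 65–79*PE libraries 13.6, 14.5 and 16.2 and 65–79*SE libraries 50.3, 41.3 and 48.3. The 3 groups were fully apart. Ccrl2 rose 9.22-fold with 65–79*SE (log2 3.2 ± 0.138, adjusted p = 3.06e-10) and 2.95-fold with 65–79*PE (log2 1.56 ± 0.141, adjusted p = 9.02e-07). Its levels in replicates 4–6 were 6.46, 4.93 and 7.89 CPM in PBS and 9.79, 9.16 and 10.8 with 65–79*PE, a 1.53-fold rise (adjusted p = 0.0116). That call was lost without replicate 4 and without replicate 5, at adjusted p = 0.0885 and 0.0625. The libraries labelled 65–79*SE had 6.29, 7.45 and 6.53 CPM, inside the range of PBS.

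Fpr2, a formyl peptide receptor, was close to undetected in PBS and detected with peptide and IFNγ. Replicates 1–3 had 6, 1 and 2 counts in PBS, 163, 114 and 176 with 65–79*SE and 65, 64 and 38 with 65–79*PE. Summed and divided by the TMM-scaled library totals, the count was 46.9-fold that of PBS for 65–79*SE (95% interval 24.5 to 103) and 17.7-fold for 65–79*PE (9.08 to 39.3). These intervals cover counting error only. The fit gave adjusted p = 4.01e-08 and 3.07e-06 (edgeR's quasi-likelihood test). Fpr2 passed the filter on low counts only through the treated groups where it was high, so it was tested because of those levels. Among replicates 4–6, PBS had 3, 0 and 0 counts and 65–79*PE 159, 124 and 195, a ratio of 208 (95% interval 70.7 to 1010). The libraries labelled 65–79*SE had 1, 1 and 3 counts, at the level of PBS. Neutrophils carry Fpr2 too, and the 6 neutrophil markers summed to 0.0934 to 0.336 CPM in PBS of replicates 1–3, 0.768 to 1.19 with 65–79*SE and 0.594 to 0.629 with 65–79*PE, with S100a9 and Retnlg at 0 in all 9 libraries. These markers in replicates 4–6 summed to 0.162 to 0.425 CPM in PBS, 0.276 to 1.19 in the libraries labelled 65–79*SE and 0.194 to 0.708 with 65–79*PE. Their part in the Fpr2 levels was not tested. Fpr1, its relative, never exceeded 5 counts in a library of the IFNγ table and was not tested. Among replicates 4–6, Fpr1 had 0, 0 and 0 counts in PBS, 2, 5 and 1 with 65–79*PE and 3, 0 and 0 in the libraries labelled 65–79*SE. The 8 summed counts with 65–79*PE against 0 in PBS give a ratio with a lower 95% limit of 2.23, for counting error only.

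Over these receptors, 6 of 7 passed the filter on low counts in the IFNγ table, and the one left out was Fpr1. Fpr2 passed only through groups where it was high, both peptides in replicates 1–3 and 65–79*PE in replicates 4–6. A gene was called at an adjusted p under 0.05 and a fold over 1.5. With 65–79*SE in replicates 1–3, 5 of the 6 were called higher than PBS and 1 lower, beside 12.6% and 10.2% of all genes tested. With 65–79*PE, 3 were called higher and 1 lower, beside 10.3% and 9.54% of all genes. For replicates 4–6 the count was 1 higher and 1 lower in the libraries labelled 65–79*SE, beside 0.238% and 0.482% of genes, and 3 higher and 1 lower with 65–79*PE, beside 6.16% and 4.66%. Treated and PBS libraries did not overlap for 6 receptors with 65–79*SE and 5 with 65–79*PE in replicates 1–3, which was also so for 56.5% and 54.5% of all genes. The same held for 2 and 4 receptors in replicates 4–6, beside 23.7% and 40% of genes. The median log2 fold change of the 6 was 1.26 for 65–79*SE and 0.53 for 65–79*PE in replicates 1–3, beside -0.01 and 0 over all genes. The median in replicates 4–6 was 0.31 and 0.37, beside 0 and 0. The value of 0.31 includes Fpr2 at a log2 fold change of 1.45, which rests on 5 summed counts against 3 in PBS. The other receptors of that contrast ran from -1.03 for Ccr1 to 1.36 for Cxcr4, so 0.31 is not read as a shared shift. The PBS libraries are shared by both contrasts, and the receptors were chosen with earlier results of these data known. These counts and medians therefore describe the receptors and are no test of them as a set.

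**Figure D2:**
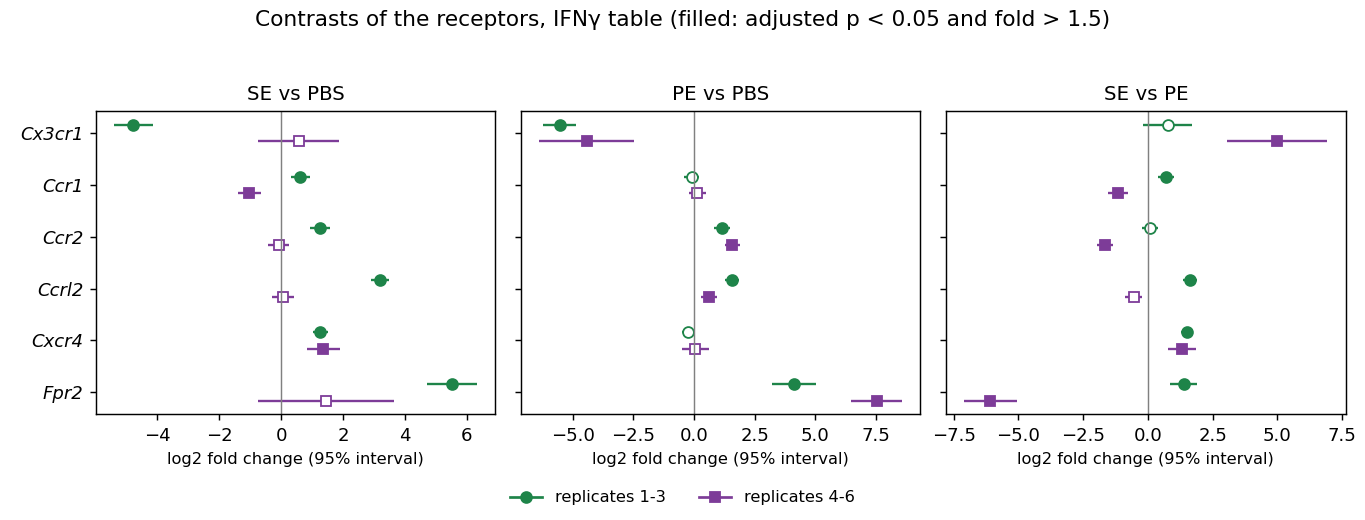
Log2 fold changes of 6 receptors in the IFNγ table by contrast, with 95% intervals, circles for replicates 1–3 and squares for replicates 4–6. Filled symbols passed the test and the fold of 1.5. In 65–79*SE against 65–79*PE, Cxcr4 lies near 1.5 and 1.3 in the 2 label sets, while Ccr1, Ccrl2 and Fpr2 lie on opposite sides of 0.

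The peptides were compared with each other as 1 pair, at the same dose and time, under each cytokine. Under IFNγ in replicates 1–3, where both groups carried the IFNγ response, 4 of 6 receptors were called higher with 65–79*SE and none lower, beside 4.48% and 1.6% of all genes. The groups did not overlap for 5 receptors, beside 44.1% of genes. Ccrl2 was 3.13-fold higher (log2 1.64 ± 0.124, adjusted p = 1.31e-06), Cxcr4 2.85-fold (log2 1.51 ± 0.113, adjusted p = 1.22e-06), Fpr2 2.62-fold (log2 1.39 ± 0.24, adjusted p = 0.00103) and Ccr1 1.64-fold (log2 0.71 ± 0.141, adjusted p = 0.00248). Ccrl2 ranked 81 and Cxcr4 104 from the top of 15343 genes by this fold change. For Ccr2 the difference was 0.1 on the log2 scale (95% interval -0.21 to 0.41). For Cx3cr1 it was 0.78 (95% interval -0.17 to 1.72), although the 65–79*SE libraries all lay above those with 65–79*PE.

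In replicates 4–6 the same comparison sets libraries without an IFNγ response beside libraries with one. The median log2 difference of the 20 IFNγ response genes was -3.12 there and -0.13 in replicates 1–3. Of 6 receptors, Cx3cr1 and Cxcr4 were called higher in the libraries labelled 65–79*SE and Ccr1, Ccr2 and Fpr2 lower, beside 5.91% and 7.9% of all genes. The groups were apart for all 6, beside 44.3% of genes. Cx3cr1 was 31.9-fold higher and Ccr2 3.15-fold lower. Cxcr4, at 2.47-fold higher (adjusted p = 0.00179), was the only one of the 6 called in the same direction in both label sets.

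The difference between the label sets was tested within 1 model per table. For 65–79*SE against PBS it passed an adjusted p under 0.05 for Cx3cr1, Ccr1, Ccr2 and Ccrl2, and for 65–79*SE against 65–79*PE for these and Fpr2. For Fpr2 with 65–79*SE against PBS the adjusted p was 0.0503. Over all genes the shares were 35.7% and 28.8%. For Cxcr4 the label sets differed by -0.11 ± 0.284 on the log2 scale against PBS (adjusted p = 0.807) and by 0.23 ± 0.289 against 65–79*PE (adjusted p = 0.605). For 65–79*PE against PBS, Ccrl2 rose more in replicates 1–3, by 0.91 ± 0.222 (adjusted p = 0.0128), and Fpr2 more in replicates 4–6, by 3.44 ± 1.006 (adjusted p = 0.0327). Across all genes 11.5% passed for that contrast.

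**Figure D3:**
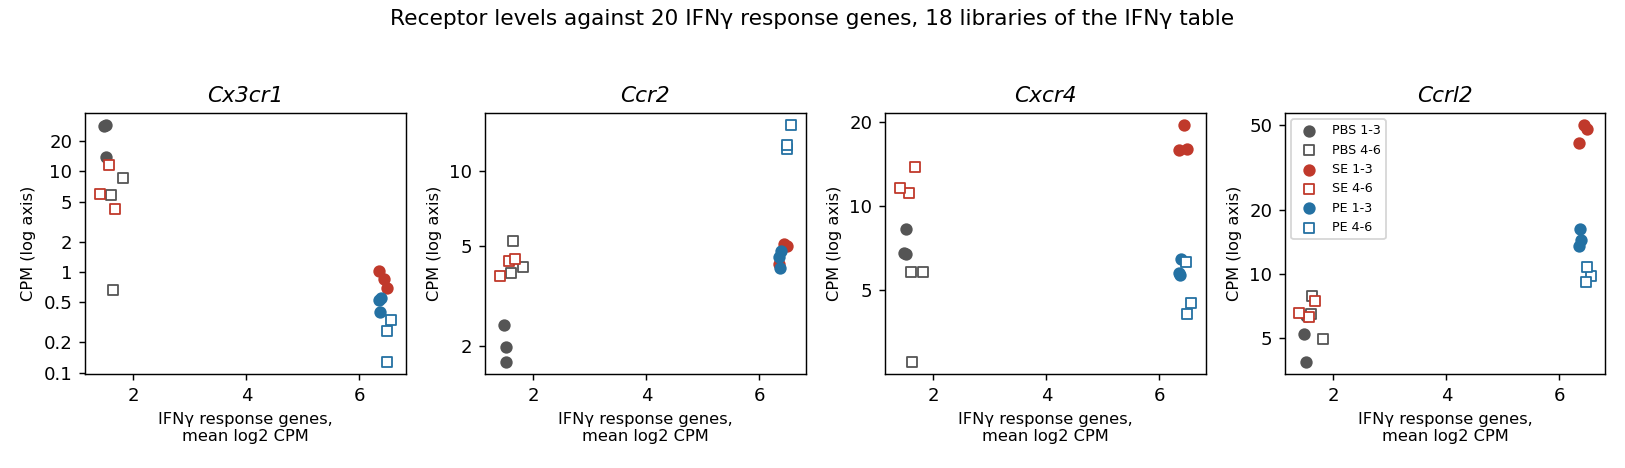
CPM of Cx3cr1, Ccr2, Cxcr4 and Ccrl2 (log axis) against the mean log2 CPM of 20 IFNγ response genes in the 18 libraries of the IFNγ table, coloured by group, with filled circles for replicates 1–3 and open squares for replicates 4–6. Libraries form 2 clusters on the horizontal axis, with the open red squares of 65–79*SE among PBS, where Cxcr4 alone of the 4 is above every PBS library.

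Pooling both label sets of the IFNγ table mixes these patterns. In a fit over 18 libraries with a term for the label set, 3 of 6 receptors were called for 65–79*SE against PBS (Ccrl2, Cxcr4 and Fpr2, all higher), beside 2.83% of genes higher and 0.734% lower. For 65–79*PE against PBS, Ccr2 and Fpr2 were called higher and Cx3cr1 lower, beside 6.55% and 6.47% of genes. For 65–79*SE against 65–79*PE, Cx3cr1 and Cxcr4 were called higher, beside 2.02% of genes higher and 1.17% lower. The calls of Ccrl2 and Fpr2 for 65–79*SE against PBS did not hold in fits that omitted replicate 1, 2 or 3, where the adjusted p ran from 0.137 to 0.166 for Ccrl2 and from 0.0925 to 0.143 for Fpr2. That of Cx3cr1 between the peptides was lost without replicate 4, 5 or 6, with adjusted p from 0.0652 to 0.13. Without the 3 libraries labelled 65–79*SE of replicates 4–6, a choice made after seeing the data, all 6 were called against PBS, with Cx3cr1 lower and 5 higher, beside 10.8% of genes higher and 7.75% lower. Against 65–79*PE, 4 were then called, all higher, beside 3.72% of genes higher and 1.44% lower, and Cx3cr1 was not among them, at a log2 difference of 0.52 (adjusted p = 0.692). In that fit Ccr1 changed direction, from -0.13 to 0.69 against PBS and from -0.15 to 0.66 against 65–79*PE, and so did Fpr2 against 65–79*PE, from -1.12 to 1.24. Cxcr4 was 1.29 with all libraries and 1.34 without the 3 against PBS.

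**Figure D4:**
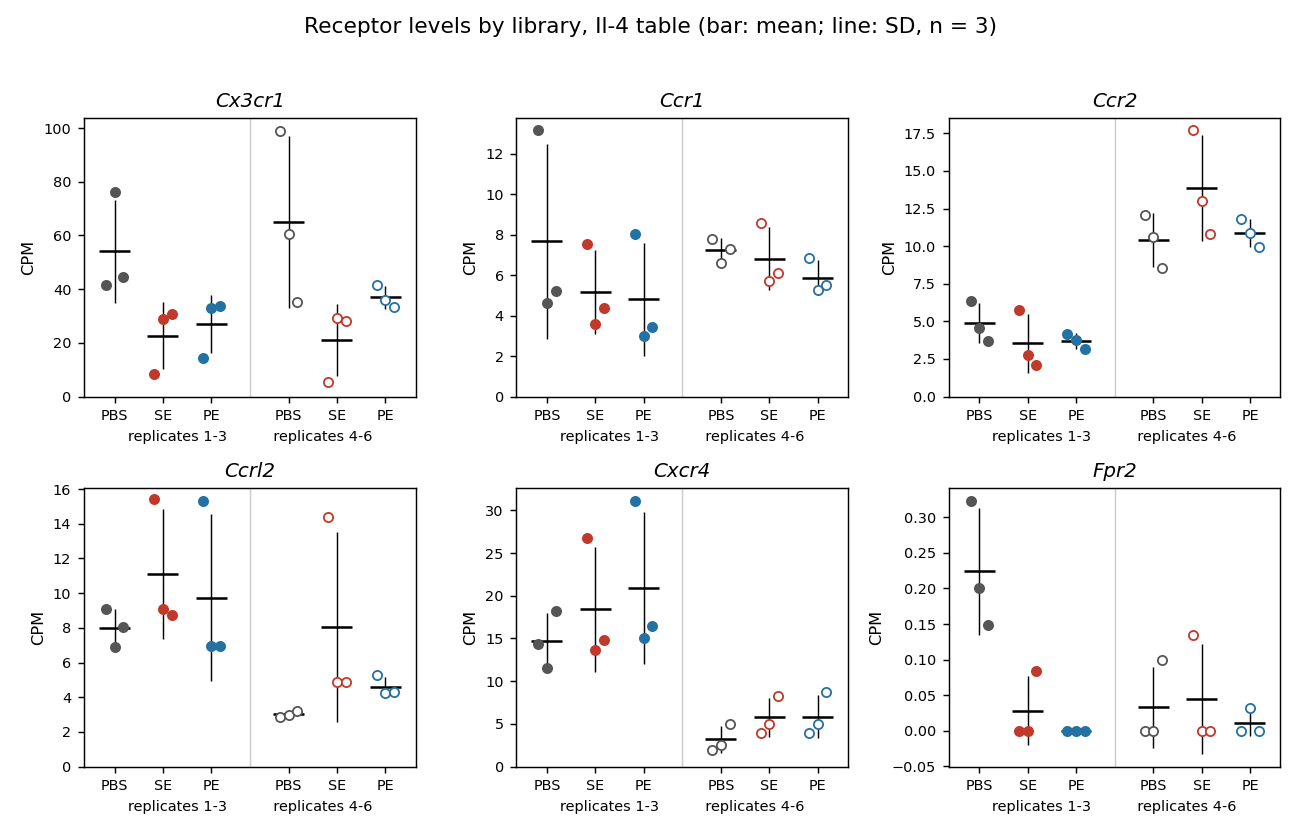
CPM of 6 receptors in each library of the Il-4 table, drawn as for the IFNγ table. Groups overlap for most receptors, replicate 1 of each group (the leftmost filled point) stands apart for Ccr1, and Fpr2 is at or near 0.

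Under Il-4, no receptor was called in either label set in the main fits, and the spread within groups was wide. These fits had no replicate block, a term for the replicate number. With that block, Cx3cr1 was called lower than PBS with both peptides in replicates 1–3, and Ccr1 lower with 65–79*PE. Cxcr4 was then called higher with both peptides in replicates 4–6. Of 18 libraries, 16 correlated best with their own number, a hint from the data and not the design. Fpr1 and Fpr2 did not pass the filter, so 5 receptors were tested per contrast, 30 tests in all over 3 contrasts and both label sets. Over all genes, 6.44% were called for 65–79*SE and 3.95% for 65–79*PE against PBS in replicates 1–3, and 1.05% and 2.24% in replicates 4–6. Between the peptides the share was 0% in each label set. Receptors whose groups did not overlap numbered 1, 1 and 0 for 65–79*SE against PBS, 65–79*PE against PBS and the peptides in replicates 1–3, beside 35.2%, 39.1% and 10% of genes, and 2, 1 and 1 in replicates 4–6, beside 22.7%, 27.5% and 17.3%. At an unadjusted p under 0.05 in edgeR's quasi-likelihood test, 3 of the 30 passed, namely Cx3cr1 with 65–79*SE against PBS in both label sets (adjusted p = 0.0785 and 0.158) and Ccrl2 with 65–79*SE in replicates 4–6 (adjusted p = 0.111). DESeq2 called Ccrl2 there, at adjusted p = 0.00961. Of 15 Il-4 response genes, 8 were called higher than PBS with 65–79*SE in each label set, and 8 and 7 with 65–79*PE, so the treated libraries of this table carried the response to their cytokine.

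Cx3cr1 was again below PBS with 65–79*SE. Replicates 1–3 had 41.6, 76.3 and 44.6 CPM in PBS, 8.4, 29 and 30.8 with 65–79*SE and 14.5, 32.9 and 33.8 with 65–79*PE, and both treated groups lay under PBS throughout. Replicates 4–6 had 99, 60.7 and 35.2 CPM in PBS, 5.42, 29.3 and 28 with 65–79*SE and 41.7, 35.9 and 33.2 with 65–79*PE, so that 65–79*SE lay under both other groups and 65–79*PE overlapped PBS. Replicate 1 of both peptides and replicate 4 of 65–79*SE were the lowest libraries. Without replicate 1, Cx3cr1 was called lower than PBS in the first label set with 65–79*SE (log2 -0.95, adjusted p = 0.00227) and with 65–79*PE (log2 -0.79, adjusted p = 0.0106). In the fit over both label sets, Cx3cr1 fell 2.7-fold with 65–79*SE (log2 -1.43 ± 0.363, adjusted p = 0.0208), beside 3.1% of genes called. For 65–79*PE the log2 fold change was -0.9 (95% interval -1.64 to -0.15, adjusted p = 0.105), beside 4.35% of genes called. The first call was lost without replicate 2 and without replicate 5, at adjusted p = 0.0796 and 0.0667.

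Ccrl2 under Il-4 had 9.07, 6.91 and 8.06 CPM in PBS, 15.4, 9.1 and 8.75 with 65–79*SE and 15.3, 6.93 and 6.97 with 65–79*PE in replicates 1–3. Replicates 4–6 had 2.85, 2.98 and 3.21 CPM in PBS, 14.4, 4.89 and 4.88 with 65–79*SE and 5.28, 4.24 and 4.29 with 65–79*PE, and both treated groups there lay above PBS. Its pooled rise with 65–79*SE was 1.89-fold (log2 0.92 ± 0.278, adjusted p = 0.0491). That call was lost in every fit that left out 1 replicate number, with adjusted p from 0.0632 to 0.0987.

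Cxcr4 differed by label set more than by group in this table, at 11.6 to 31.1 CPM in replicates 1–3 and 1.98 to 8.69 CPM in replicates 4–6. Its levels in PBS were 14.3, 11.6 and 18.2 CPM in replicates 1–3 and 1.98, 2.53 and 5.04 CPM in replicates 4–6. With 65–79*SE they were 26.8, 13.6 and 14.8 CPM and then 3.98, 5.04 and 8.32. With 65–79*PE they were 31.1, 15.1 and 16.5 and then 3.88, 4.94 and 8.69. In replicates 4–6 the log2 fold change from PBS was 0.85 with 65–79*SE (95% interval -0.08 to 1.77). With 65–79*PE it was 0.85 as well (95% interval -0.08 to 1.77). Between the peptides the pooled log2 difference was -0.1 (95% interval -0.65 to 0.45). Ccr1 ranged from 2.97 to 13.2 CPM over the 18 libraries and Ccr2 from 2.09 to 17.7 CPM, with the groups of a label set overlapping in each contrast. None of the 5 receptors was called between the peptides under Il-4 in either label set or pooled, and their pooled log2 differences lay between -0.53 and 0.5. The widest 95% interval was that of Cx3cr1, from -1.29 to 0.22. Over all genes 0.00741% were called between the peptides in the pooled fit, which is 1 gene. No receptor differed between the label sets at an adjusted p under 0.05 for 65–79*SE against PBS, 65–79*PE against PBS or the peptides, beside 4.39%, 0.00705% and 0% of genes. The standard errors of these differences ran from 0.405 to 0.74 on the log2 scale, so this does not show that the label sets agreed.

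Fpr2 had 8, 5 and 4 counts in the PBS libraries of replicates 1–3 in the Il-4 table, against 0, 0 and 2 with 65–79*SE and 0, 0 and 0 with 65–79*PE. The summed counts of 17, 2 and 0 gave a ratio to PBS of 0.123 for 65–79*SE (95% interval 0.0138 to 0.519) and at most 0.253 for 65–79*PE. Every group of replicates 4–6 had at most 3 counts in all. Fpr1 totalled 2 counts over the 18 libraries of this table, which is not enough to compare groups.

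**Figure D5:**
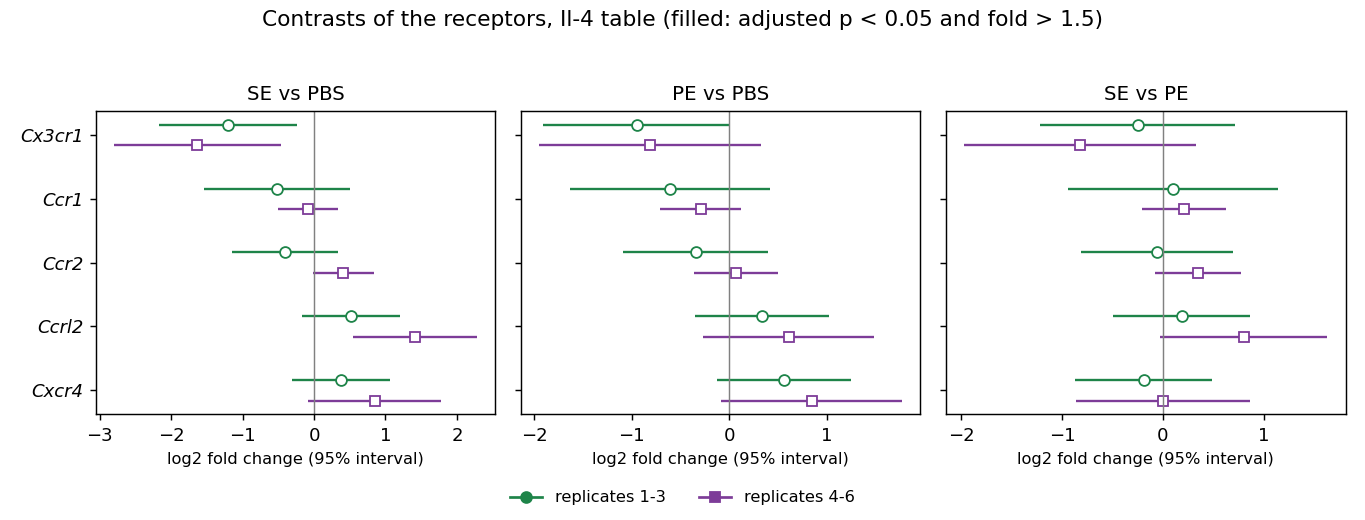
Log2 fold changes of the 5 receptors tested in the Il-4 table, with 95% intervals, circles for replicates 1–3 and squares for replicates 4–6. No symbol is filled, and most intervals cross 0.

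Some receptors varied together over the libraries. On the log2 CPM scale, centred on the PBS mean of the same label set, Ccr2 and Fpr2 had Pearson's r = 0.954 over the 18 libraries of the IFNγ table, and Cx3cr1 had r = -0.872 with Ccr2 and -0.787 with Ccrl2. Cxcr4 was the least tied to these, at -0.138 with Ccr2 and 0.245 with Cx3cr1. In the Il-4 table Cx3cr1 had r = -0.863 with Ccrl2, while its r with Ccr2 was -0.296. The points share their libraries and PBS means and fall into clusters by group, so these values describe the tables only.

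By the same measure over the IFNγ table, with genes of at least 10 CPM, the pattern most like that of Cx3cr1 was in Gpr183, the receptor for oxysterols (r = 0.983), then Fxyd2 and S100a4 (0.982 and 0.981). Over the Il-4 table the r of Gpr183 with Cx3cr1 was 0.304. For Ccr2 the nearest were Ctsc, C1qc and Gbp4 (0.982, 0.978 and 0.978), for Fpr2 they were C3, Ms4a6b and C1qc (0.987, 0.983 and 0.979), and for Ccrl2 Rala, Pim1 and Fam65c (0.982, 0.974 and 0.974). Those of Cxcr4 (Dhrs3, Rab7b and Haus8, 0.912, 0.904 and 0.886) and Ccr1 (Zfp131, Cflar and Cul5, 0.898, 0.878 and 0.874) were less alike. In the Il-4 table the r of C1qc with Ccr2 was -0.213, of C3 with Fpr2 -0.305, of C1qc with Fpr2 -0.601, of Rab7b with Cxcr4 -0.079 and of Haus8 with Cxcr4 -0.535. Fpr1 was too low for such a measure to be read.

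Of 38 other chemoattractant receptors, 14 had no more than 3 counts in any library, and 6 exceeded 10 CPM in at least one. In replicates 1–3 under IFNγ, 13 were tested, of which 6 were called higher and 3 lower than PBS with each peptide, and 1 in each direction between the peptides. The shares of all genes called higher and lower in that label set were 12.6% and 10.2% for 65–79*SE against PBS, 10.3% and 9.54% for 65–79*PE against PBS and 4.48% and 1.6% between the peptides. C3ar1, the receptor for complement fragment C3a, rose with 65–79*SE from 64.9 ± 1.56 to 146 ± 7.23 CPM (SD, n = 3, adjusted p = 4.63e-10). Gpr183 fell from 27.3 ± 0.108 to 5.29 ± 0.385 CPM (adjusted p = 6.1e-11). Of the same 13 in replicates 4–6, 4 were called higher and 2 lower with 65–79*PE and none in the libraries labelled 65–79*SE, where 6.16% and 4.66% of all genes were called with 65–79*PE and 0.238% and 0.482% in the libraries labelled 65–79*SE. Under Il-4, C3ar1 was called higher than PBS with both peptides in both label sets, at 176 ± 17.9 and 172 ± 6.88 CPM against 94.4 ± 12.8 CPM in replicates 4–6.

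Ligands of the 7 receptors were measured in the same libraries. With IFNγ in replicates 1–3, 11 of 16 were tested, and 7 were called higher than PBS with 65–79*SE and none lower, while with 65–79*PE 7 were called higher and 3 lower, beside 12.6% of all genes higher and 10.2% lower with 65–79*SE and 10.3% and 9.54% with 65–79*PE. Ccl5, a ligand of Ccr1, rose from 1.03 ± 0.138 to 54.7 ± 5.4 CPM with 65–79*SE (adjusted p = 1.47e-13) and stood at 9.68 ± 0.309 CPM with 65–79*PE. Ccl2, the ligand of Ccr2, rose from 11 ± 1.3 CPM to 47.1 ± 2.01 with 65–79*SE (adjusted p = 3.6e-10) and to 33.4 ± 2.81 with 65–79*PE (adjusted p = 7.85e-09). Between the peptides, 7 of 11 ligands were called higher with 65–79*SE and none lower, beside 4.48% and 1.6% of all genes. Among the ligands in replicates 4–6, none was called higher and 2 lower in the libraries labelled 65–79*SE (0.238% and 0.482% of all genes), and 4 higher and 1 lower with 65–79*PE (6.16% and 4.66%). Under Il-4, the annexin Anxa1, a ligand of Fpr2, was 436 ± 43.4 CPM with 65–79*SE and 445 ± 81.7 with 65–79*PE against 281 ± 4.01 in PBS of replicates 1–3 (adjusted p = 0.00674 for each).

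Genes listed for signalling below chemoattractant receptors moved in both directions. Of the 26 genes in the list, 25 were tested under IFNγ in replicates 1–3. One of them, Cd74, is also among the IFNγ response genes. It was called higher than PBS there with 65–79*SE (log2 2 ± 0.085) and with 65–79*PE (log2 2.47 ± 0.086). For 65–79*SE, 6 were called higher and 6 lower than PBS (12.6% and 10.2% of all genes), and 5 each way for 65–79*PE (10.3% and 9.54%). Rgs1, which shortens G protein signals, rose from 37.6 ± 2.45 to 300 ± 42.2 CPM and to 151 ± 4.89 CPM with the 2 peptides (adjusted p = 8.24e-12 and 4.21e-10). Rgs1 was also higher with 65–79*SE than with 65–79*PE (log2 0.98 ± 0.084, adjusted p = 4.12e-06), one of 2 genes called higher, with 1 called lower (4.48% and 1.6% of all genes). In replicates 4–6, none of the 25 was called higher and 1 lower than PBS in the libraries labelled 65–79*SE (0.238% and 0.482% of all genes), and 4 higher and 2 lower with 65–79*PE (6.16% and 4.66%). The gene called lower was Rgs1, at 67.1 ± 4.95 CPM in the libraries labelled 65–79*SE against 130 ± 37.1 CPM in PBS (log2 -0.95 ± 0.157, adjusted p = 0.0246). It was also lower than with 65–79*PE, at 180 ± 10.7 CPM (log2 -1.41 ± 0.158, adjusted p = 3.84e-05).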

How the data were processed

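RNA-seq was done on RAW264.7 cells with TruSeq Stranded mRNA libraries and single-end reads. The authors used featureCounts with GENCODE annotation of GRCm38.p5 to count reads that aligned uniquely and deposited raw counts, which were used as deposited. The aligner and the strand option were not given in the sources used here, and the submitters' processing notes name DESeq2 1.16.1 and R 3.4.1. Each cytokine has its own table, and no level was compared across tables.

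Counts were fitted with edgeR 4.0.16 in R 4.3.3 (TMM scaling, filterByExpr, quasi-likelihood test), with each label set fitted alone over its 9 libraries, then with both label sets and a term for the set. P-values were adjusted by Benjamini-Hochberg over all genes tested, and a call needed an adjusted p under 0.05 and a fold over 1.5. Folds are on the log2 scale of the fit, and CPM use TMM-scaled totals. The fits were tested on simulated data. Of simulated 2-fold changes, edgeR recovered 68% to 95% in fits of 1 label set and 33% and 38% in the pooled fits. For the difference between label sets it recovered 1%. The spread simulated for the pooled and difference fits included the difference between the label sets, for which the fits to the data have terms. Recoveries of the pooled and difference fits therefore do not measure their power in these data. Intervals of summed counts are exact 95% intervals that cover counting error only. Receptors and gene lists were chosen with earlier results of these data known. All 7 receptors are named, and from each list up to 3 called genes per contrast with the largest change, at least 10 CPM and groups that do not overlap. Genes of similar pattern are the 3 with the highest r over 18 libraries, after log2 transformation of CPM (prior count 2). The alternatives tried were DESeq2 1.42.0, RLE scaling, at least 10 counts in every library, no filter, removal of histone and Rn7s rows, library totals, a replicate block, 1 model per table, no term for the label set, and each replicate left out.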

Additional observations from a re-analysis of the deposited data

Results flagged for a closer look

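Of 42 sets of 6 libraries (7 receptors in 6 groups), 5 held a library far from the other 5. The nominal rate of this rule is about 1 in 20 sets for libraries of 1 distribution, while these sets hold both label sets, and 2 of them had every library at 0. In the Il-4 table, Cx3cr1 was 14.5 CPM in replicate 1 of 65–79*PE (others 32.9 to 41.7), Ccr1 was 13.2 CPM in replicate 1 of PBS (others 4.6 to 7.79) and Ccrl2 was 15.3 CPM in replicate 1 of 65–79*PE (others 4.24 to 6.97). Fpr2 was 0.168 CPM in replicate 1 of PBS in the IFNγ table (others 0 to 0.0623) and 0.0316 CPM in replicate 5 of 65–79*PE in the Il-4 table (others 0), both within a few counts of 0.

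The difference of a contrast between the label sets (replicates 1–3 minus replicates 4–6, log2) passed an adjusted p under 0.05 in 11 of 33 tests, all in the IFNγ table, where 35.7% of all genes passed for 65–79*SE against PBS, 11.5% for 65–79*PE against PBS and 28.8% between the peptides. For 65–79*SE against PBS it was -5.36 for Cx3cr1, 1.62 for Ccr1, 1.31 for Ccr2 and 3.13 for Ccrl2. For 65–79*PE against PBS it was 0.91 for Ccrl2 and -3.44 for Fpr2. For 65–79*SE against 65–79*PE it was -4.21 for Cx3cr1, 1.89 for Ccr1, 1.77 for Ccr2, 2.22 for Ccrl2 and 7.48 for Fpr2. Of the 11, 9 involve the libraries labelled 65–79*SE of replicates 4–6, which lack the IFNγ response.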

How the results depend on the processing

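Counts of called receptors were computed again under other settings 214 times, and 176 stayed within 1.5 times the value reported. With at least 10 counts in every library, 2 were called for 65–79*PE against PBS and 3 for 65–79*SE against 65–79*PE in replicates 4–6 under IFNγ. That filter took Cx3cr1 and Fpr2 out of testing there, and the calls of the other receptors stayed. Without the term for the label set, 1 was called for 65–79*SE against PBS and 1 against 65–79*PE over the pooled IFNγ table, and 0 for 65–79*SE against PBS under Il-4. Without the libraries labelled 65–79*SE of replicates 4–6 these IFNγ counts were 6 and 4, and the reversed values were 0.69 and 0.66 for Ccr1 against PBS and 65–79*PE and 1.24 for Fpr2 against 65–79*PE. Without a filter the Il-4 counts were 1 (65–79*SE) and 3 (65–79*PE) against PBS in replicates 1–3, 2 for 65–79*SE in replicates 4–6, 3 for 65–79*PE pooled, and 1 for the label set difference of 65–79*SE. DESeq2 called 1 for 65–79*SE against PBS in replicates 4–6 under Il-4. Scaling to library totals turned Ccrl2 in the libraries labelled 65–79*SE against PBS to -0.01. Cxcr4 between the peptides in replicates 4–6 under Il-4, near 0, was -0.003 with DESeq2, -0.007 without a filter, -0.002 with at least 10 counts and -0.025 with library totals. The causes of the changes other than those from the filter of 10 counts were not tested.

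The libraries were taken to share only a number, since the correlation of deviations from the group means did not exceed 0.1 in every pair with the same number. It ran from -0.126 to 0.125 under IFNγ, and under Il-4 from 0.081 to 0.389 in replicates 1–3 and from -0.11 to 0.395 in replicates 4–6. As a hint from the data and not the design, 8 of 18 libraries under IFNγ and 16 of 18 under Il-4 correlated best with their own number. With a replicate block, 1 receptor was called for 65–79*SE against PBS and 1 against 65–79*PE in the pooled IFNγ table. Under Il-4 the block gave 1 for 65–79*SE (Cx3cr1 lower, log2 -1.34, adjusted p = 0.00263) and 2 for 65–79*PE (Cx3cr1 at -1.02, adjusted p = 0.0103, and Ccr1 at -0.60, adjusted p = 0.019) against PBS in replicates 1–3. For replicates 4–6 it gave 1 and 1 (Cxcr4 higher, 0.89 with each peptide, adjusted p = 0.0139 and 0.00808), and 1 for 65–79*PE pooled (Cxcr4, 0.615, adjusted p = 0.013), with Cxcr4 between the peptides at -0.001 in replicates 4–6 and Ccr2 for 65–79*SE pooled at -0.007.

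Leaving out each replicate in turn, the count ran from 0 to 2 (65–79*SE against PBS) and 2 to 4 (65–79*PE against PBS) in replicates 4–6 under IFNγ, and from 1 to 5 (65–79*SE against PBS) and 1 to 3 (between peptides) pooled. Under Il-4 it ran from 0 to 2 and 0 to 1 for the 2 peptides against PBS in replicates 1–3 and from 0 to 1 for 65–79*SE pooled. Values that crossed 0 were small. Under IFNγ, Ccr1 for 65–79*PE against PBS ran from -0.238 to 0.126 in replicates 1–3, from -0.11 to 0.258 in replicates 4–6 and from -0.097 to 0.122 pooled. Pooled Ccr1 ran from -0.307 to 0.123 for 65–79*SE against PBS and from -0.397 to 0.079 between peptides. In replicates 4–6, Ccr2 ran from -0.203 to 0.143 and Ccrl2 from -0.152 to 0.252 for 65–79*SE against PBS, and Cxcr4 from -0.097 to 0.309 for 65–79*PE. Under Il-4 in replicates 1–3, Cxcr4 for 65–79*SE against PBS ran from -0.01 to 0.693, Ccrl2 for 65–79*PE from -0.047 to 0.527 and Ccr2 between peptides from -0.511 to 0.108. In replicates 4–6, Cxcr4 between peptides ran from -0.021 to 0.208 and Ccr1 for 65–79*SE from -0.285 to 0.005, where the ends at 0.208 and -0.285 leave out replicate 4 of 65–79*SE alone, a choice made after seeing the data, and pooled Ccr2 for 65–79*SE from -0.078 to 0.127.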
